A study of Homo sapiens with 14 samples.

Results

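The 10 genes described here are the luminal and basal keratins KRT8, KRT18, KRT19, KRT7, KRT5, KRT14, KRT15, KRT4, KRT13 and KRT80, taken by gene name from the RNA-seq count tables of a study of the transcription factor FOXA1. They are 10 of the 57905 features in the largest table, and 44 other keratins form the comparison lists. All 14 libraries came from 22Rv1, an established human prostate cancer cell line. The shCtrl and shFOXA1 groups received control lentivirus or lentivirus that knocks down FOXA1. The titles of the shCtrl libraries say 22Rv2, while their cell line label says 22Rv1. The dTAG 0 h, 1 h and 24 h groups were cells whose FOXA1 carries a degron, labelled FOXA1_dTAG, a tag through which a dTAG compound causes the protein to be degraded. The WT and R219S groups were also FOXA1_dTAG cells, labelled wild type or with a FOXA1 R219 mutation named R219S. Each of the 7 groups had 2 libraries. The labels say that the degron cells received dTAG or DMSO without stating which libraries got which for WT and R219S, and no vehicle group at 24 h is described. Whether each engineered line was 1 clone is not given in the sources used here, and neither is whether the libraries of a group came from separate cultures, so the p-values below measure only the spread between these libraries.

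Keratins are the intermediate filament proteins of epithelial cells, and a filament forms only when a type I keratin pairs with a type II keratin. Luminal cells of the prostate gland are known for KRT8 and KRT18, the pair of simple epithelia, whereas the basal layer beneath them is known for KRT5, KRT14 and KRT15. FOXA1 is a forkhead transcription factor that opens chromatin for other factors in luminal prostate cells.

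Sequences before the annotated starts of KRT8, the most counted keratin in most groups, and KRT5, barely counted in any library, are shown. They were chosen because both are type II keratin genes on chromosome 12 at opposite ends of the levels below. Each sequence is the 250 bases before the start of the gene in RefSeq on GRCh38.p14, minus strand, 5′ to 3′. The KRT8 start is that of the outermost RefSeq transcript, and whether the KRT8 counts come from that transcript was not tested. The KRT8 window may therefore not be the promoter of the transcript counted here. KRT8 lies at chr12:52926470-52926719 and KRT5 at chr12:52520395-52520644.
KRT8: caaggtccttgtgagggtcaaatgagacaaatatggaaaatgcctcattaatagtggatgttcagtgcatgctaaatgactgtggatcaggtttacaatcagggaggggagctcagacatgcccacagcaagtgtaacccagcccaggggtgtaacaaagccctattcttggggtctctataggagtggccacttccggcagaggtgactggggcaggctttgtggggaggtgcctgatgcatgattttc
KRT5: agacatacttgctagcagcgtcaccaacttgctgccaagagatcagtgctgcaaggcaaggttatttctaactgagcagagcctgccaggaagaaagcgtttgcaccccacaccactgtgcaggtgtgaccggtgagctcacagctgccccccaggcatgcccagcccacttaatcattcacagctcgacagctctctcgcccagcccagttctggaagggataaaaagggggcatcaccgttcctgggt
Both are in lower case throughout because no motif searched was found in either. The forkhead core TGTTTNC and the TATA box TATAAA were searched on both strands. They occur in 15.5% and 10.7% of 35116 RefSeq promoter windows of that length. The window of KRT4, the only other member among the 3 keratins found in that table, also held neither of them. Other members are not printed.

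Library totals ran from 21560090 to 38465155 counts. Replicates differed more in shFOXA1, where the chi-square statistic per degree of freedom over genes was 11.8, than in the other groups, where it was 2.04 to 4.04. FOXA1 mRNA was lower in shFOXA1 (log2 fold change -0.47 ± 0.0622 SE, edgeR adjusted p = 0.000275) and in R219S (-0.57 ± 0.0364, adjusted p = 1.28e-45), and it was higher after 24 h of dTAG (0.23 ± 0.039, adjusted p = 7.6e-06). The 1 h value was -0.0057 ± 0.0333 (edgeR adjusted p = 0.941); the degron acts on protein, so mRNA does not check it. Markers of luminal prostate cells were counted in every library, with a sum over 9 genes of 1075 to 3724 counts-per-million (CPM, scaled to the library total). Endothelial and leukocyte marker sums were at most 3.46 CPM. Fibroblast markers summed to 19.2 to 30.8 CPM in the knockdown and dTAG time libraries, 217 and 225 CPM in WT, and 505 and 517 CPM in R219S, with COL1A2 at 0 in all 4 of the last libraries.

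The keratin pool differed more between the sets of control libraries than within any comparison. Together the 10 genes took 450 and 447 CPM in the shCtrl libraries, 3200 and 3174 CPM at dTAG 0 h, and 6750 and 6831 CPM in WT. Each perturbed group then lay above its own controls. The pool was 864 and 1000 CPM in shFOXA1, 3646 and 3631 CPM at 1 h, 4427 and 4259 CPM at 24 h, and 8649 and 8426 CPM in R219S. These 3 sets of libraries were counted in separate tables. Differences between the engineered lines and between sequencing runs cannot be told apart across them. The WT and R219S libraries were counted on 20243 features, against 57904 for the knockdown and 57905 for dTAG. Their CPM are therefore scaled to totals over unlike sets of features. In bulk RNA, fewer cells of a type and less RNA per cell also cannot be told apart.

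The pool was almost entirely KRT8, KRT18 and KRT19, which made up 97.9% to 99.9% of the members' counts in every library. The 10 genes in turn held 98% to 99.7% of all counts on keratin family genes. In shCtrl, KRT8 took 42.8% and 42.3%, KRT19 took 37.4% and 36%, and KRT18 took 19.2% and 21.2%. In shFOXA1, KRT19 took 53.9% and 54.1%, KRT8 33.7% and 35.2%, and KRT18 11.1% and 8.67%. The shares of KRT19 rose above those of both controls and the shares of KRT8 and KRT18 fell below them. During dTAG the largest shares hardly moved: KRT8 took 63.1% to 63.7% and KRT19 25.9% to 26.3% over the 6 libraries of 0, 1 and 24 h. The KRT18 share fell from 9.88% and 10.1% at 0 h to 8.85% and 8.83% at 24 h. That of KRT15 rose from 0.482% and 0.429% to 1.04% and 1.09%. WT had the highest KRT8 shares, 80.7% and 80.8%, with KRT19 at 11.9% and 12.4%. In R219S the KRT8 share was 76.6% in both libraries and the KRT19 share 15.9% and 16%.

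**Figure D1:**
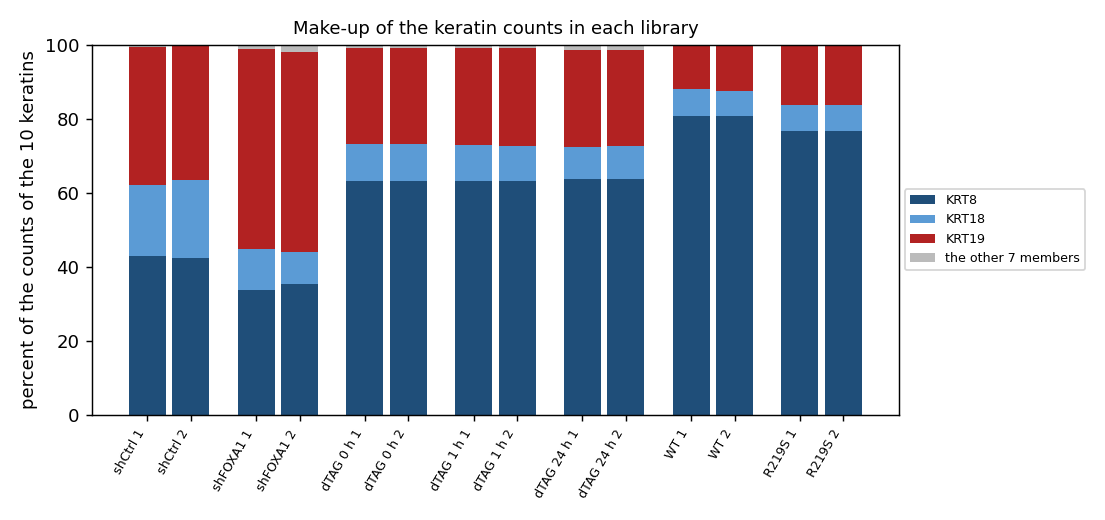
Percent of the counts on the 10 keratins (vertical axis) taken by KRT8, KRT18, KRT19 and the other 7 members in each of the 14 libraries (stacked bars). KRT19 holds over 50% only in the 2 shFOXA1 libraries, and KRT8 holds over 75% only in WT and R219S.

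Compared per length, KRT8 and KRT19 exchanged places between the sets. In RPKM, which is CPM divided by transcript length in kilobases, KRT19 led in shCtrl with 118 ± 3.54 (SD, n = 2) against 89.8 ± 1.2 for KRT8, and in shFOXA1 with 362 ± 38.2 against 152 ± 20.5. KRT8 led elsewhere, from 947 ± 5.66 RPKM at 0 h to 3076 ± 56.6 in R219S, where KRT19 had 596 ± 5.66 and 980 ± 17.7. KRT18 ranked below both in every group, from 58 ± 3.68 in shCtrl to 387 ± 7.07 RPKM in R219S. No ranges of these 3 genes overlapped within a group. Below them came a wide gap, since KRT7 and KRT15 stood between 0.114 and 8.82 RPKM in every group. KRT7 was above KRT15 in 4 groups and below it in shCtrl, shFOXA1 and at 24 h, although the principal KRT15 transcript used has 5237 bases against 1754 for KRT7, and a shorter transcript would raise its value. KRT80, KRT14, KRT13, KRT5 and KRT4 mostly came lower still, but in shFOXA1 KRT14 (0.324 ± 0.165) ranked above KRT7 (0.265 ± 0.075), and in both knockdown groups the ranges of those 2 genes overlapped. The ranges of KRT5 and KRT4 met in every group.

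**Figure D2:**
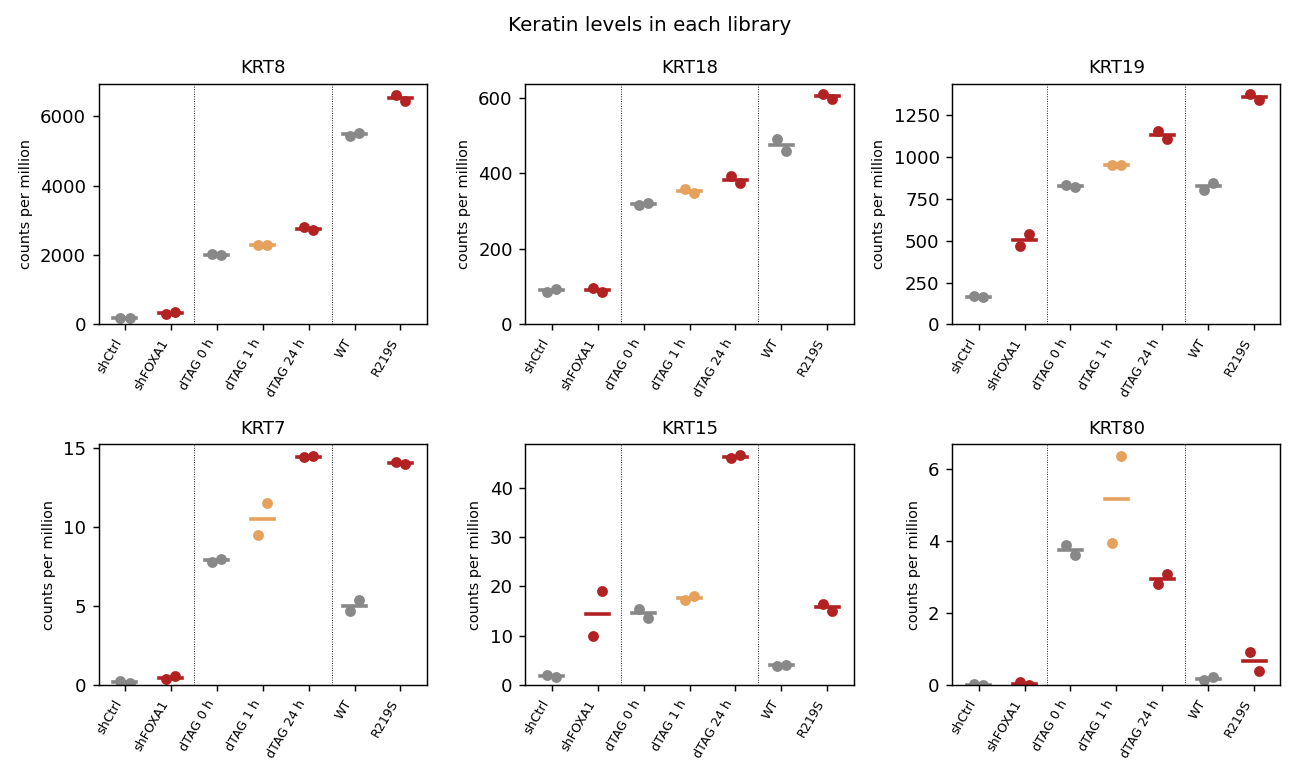
CPM scaled to the library total (vertical axis, one scale per panel) for KRT8, KRT18, KRT19, KRT7, KRT15 and KRT80 in every library (points) with group means (bars), in 7 groups divided by dotted lines into the 3 sets of libraries. KRT15 reaches 46 and 46.5 CPM at 24 h against 15.4 and 13.6 at 0 h, and KRT18 in shFOXA1 overlaps shCtrl.

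Across the 4 main comparisons, called keratins were higher in the perturbed group each time and none was called lower. A gene was called at an adjusted p under 0.05 (edgeR quasi-likelihood test, Benjamini-Hochberg over all genes tested), and the filter on low counts left 6 or 7 of the 10 members in each fit. In shFOXA1, 3 of 6 were called higher, where 23.6% of all genes were called, 11.3% higher and 12.3% lower. At 1 h, 5 of 6 were called higher, against 19.8% of all genes called, 10.7% higher and 9.12% lower. At 24 h, 6 of 7 were called higher, against 46.9% called, 22.1% higher and 24.8% lower. In R219S all 6 that were tested were called higher, against 62.1% called, 30.5% higher and 31.6% lower. The median log2 fold change of the tested members was 1.40, 0.24, 0.42 and 1.12 in that order, and the median over all genes lay within 0.01 of 0 each time. Some of these tallies were fixed in part by the filter: KRT7 and KRT14 in shFOXA1, KRT14 at 24 h and KRT80 in R219S passed it only through the perturbed group, where they are high. The tallies and medians are therefore descriptions. The members that missed the filter were KRT4, KRT5 and KRT13 in every comparison, KRT80 in shFOXA1, and KRT14 at 1 h and in R219S. The 1 h and 24 h comparisons share their 0 h libraries.

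**Figure D3:**
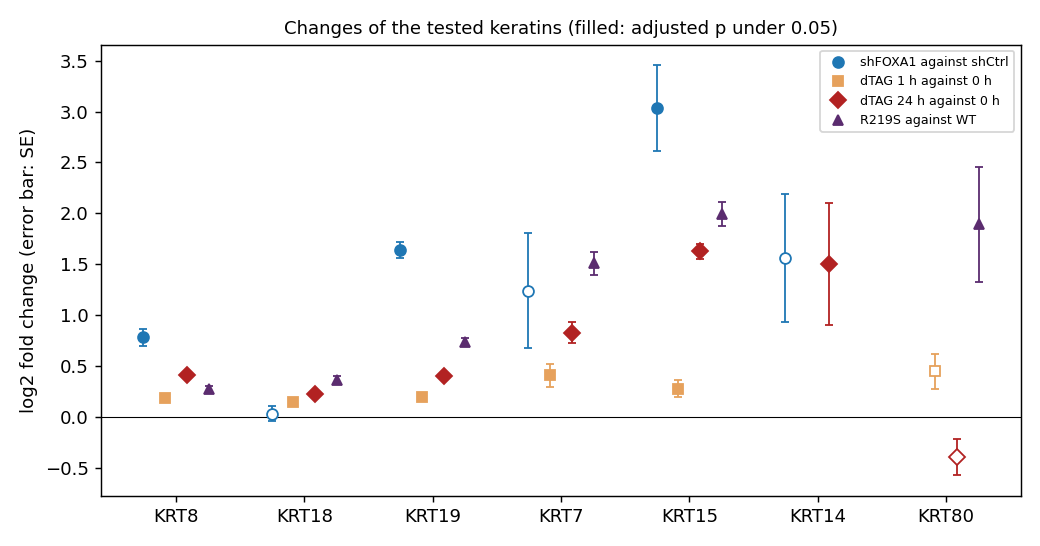
Log2 fold change (vertical axis, bars are SE) of each tested keratin (horizontal axis) in the 4 main comparisons; filled markers have an adjusted p under 0.05. KRT15 has the highest filled marker in each of the shFOXA1, 24 h and R219S comparisons, and the open markers at 0.03 for KRT18 and -0.39 for KRT80 did not pass.

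KRT8, the type II partner of KRT18 in simple epithelia, rose in every comparison. It stood at 193 and 189 CPM in shCtrl and at 292 and 352 CPM in shFOXA1. Both knockdown libraries lay above both controls, a log2 fold change of 0.78 ± 0.0859 (edgeR adjusted p = 0.000233). With dTAG it went from 2022 and 2004 CPM at 0 h to 2301 and 2293 at 1 h and 2818 and 2712 at 24 h. The time points did not overlap, and the changes were 0.19 ± 0.0236 at 1 h (adjusted p = 7.31e-10), 0.41 ± 0.0325 at 24 h (adjusted p = 2.89e-12) and 0.23 ± 0.0266 from 1 h to 24 h (adjusted p = 6.05e-10). WT had 5445 and 5517 CPM and R219S had 6625 and 6454. R219S again lay above WT, by 0.27 ± 0.0336 (adjusted p = 1.96e-14). Its place among all genes by size was modest, since 5.17% of genes had as high a fold change in shFOXA1 and 17.5% to 22.1% in the other comparisons.

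KRT18, the type I partner of KRT8, did not follow it in the knockdown. It had 86.6 and 94.7 CPM in shCtrl and 95.7 and 86.6 CPM in shFOXA1. The groups overlapped, and the log2 fold change was 0.03 ± 0.0716 (edgeR adjusted p = 0.779), a sign that depended on single libraries. In the degron cells it rose from 316 and 321 CPM at 0 h to 360 and 347 at 1 h and 392 and 376 at 24 h. All later libraries lay above 0 h, by 0.15 ± 0.0292 at 1 h (adjusted p = 5.72e-05) and 0.23 ± 0.0363 at 24 h (adjusted p = 4.4e-06); without 1 h replicate 1 the 1 h value was 0.12 (adjusted p = 0.0659). R219S had 612 and 597 CPM against 491 and 460 in WT, a rise of 0.36 ± 0.0374 (adjusted p = 6.41e-20). The ratio of KRT8 to KRT18 counts was 2.22 and 2 in shCtrl, 3.05 and 4.06 in shFOXA1, 6.24 to 6.6 at 0 h and 1 h, 7.19 and 7.21 at 24 h, 11.1 and 12 in WT and 10.8 in both R219S libraries. It was thus higher with knockdown and at 24 h than in the matching controls, and lower in R219S than in WT.

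The counts of KRT8 and KRT18 carry a limit that the other members share less. Of all 50-base windows of their principal transcripts, 36.9% for KRT8 and 47.6% for KRT18 also occur in a transcript of another gene in GENCODE 29, in either orientation, against 1.79% for KRT19 and 0.328% for KRT15. Both have many processed pseudogenes, and their neighbouring genes on chromosome 12 overlap by 525 exon bases on opposite strands. Whether counting used strand is not given in the sources used here. Counts on the 51 KRT8 pseudogenes were 4.23% to 9.44% of the KRT8 count in the knockdown libraries and 0.612% to 0.89% in the dTAG time libraries. For the 67 KRT18 pseudogenes the shares were 3.57% to 5.89% and 0.495% to 0.85%. The KRT8 pseudogene counts themselves were alike in both sets, 508 to 700 per library, while KRT8 differed. The WT and R219S counts hold 0 pseudogene features for either gene. Where such reads went in those libraries is not known, so KRT8 and KRT18 were not counted alike across the sets.

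KRT19, a small type I keratin of simple epithelia that lacks the usual tail, rose furthest of the 3 abundant members with knockdown. Its libraries had 168 and 161 CPM in shCtrl and 466 and 540 CPM in shFOXA1. Knockdown was 3.11-fold above control (log2 1.64 ± 0.077, edgeR adjusted p = 4.84e-07), and only 0.791% of genes had as high a fold change. With dTAG, KRT19 went from 834 and 823 CPM at 0 h to 953 and 954 at 1 h and 1154 and 1107 at 24 h. The groups did not overlap, and the rises were 0.20 ± 0.0253 at 1 h (adjusted p = 8.68e-10), 0.41 ± 0.0338 at 24 h (adjusted p = 1.23e-11) and 0.20 ± 0.0285 from 1 h to 24 h (adjusted p = 4.05e-08). R219S had 1379 and 1344 CPM against 806 and 845 in WT. That rise was 0.74 ± 0.036 (adjusted p = 6.44e-72), larger than those of KRT8 and KRT18 there.

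KRT7, a type II keratin of ductal and glandular epithelia, was scarce in the knockdown libraries and higher in the degron cells. It had 9 and 5 counts in shCtrl and 13 and 19 counts in shFOXA1. The knockdown value of 1.24 ± 0.563 did not pass (edgeR adjusted p = 0.134), although the groups did not overlap. It went from 7.79 and 7.99 CPM at 0 h to 9.48 and 11.5 at 1 h and 14.4 and 14.5 at 24 h. These groups stood apart as well, with rises of 0.41 ± 0.115 at 1 h (adjusted p = 0.00565), 0.83 ± 0.101 at 24 h (adjusted p = 3.89e-08) and 0.42 ± 0.102 from 1 h to 24 h (adjusted p = 0.000585). DESeq2 did not call the 1 h change (adjusted p = 0.071), nor did edgeR without 1 h replicate 2 (0.26, adjusted p = 0.245). The change from 1 h to 24 h was not called without 1 h replicate 1 (0.29, adjusted p = 0.0611). In R219S, KRT7 had 14.1 and 14 CPM against 4.68 and 5.38 in WT, a 2.84-fold rise (log2 1.51 ± 0.115, adjusted p = 5.37e-34).

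The small changes at 1 h went along with the base composition and length of genes. Over 18705 genes the log2 fold change at 1 h had a Spearman correlation of 0.323 with transcript GC content and -0.16 with length, given as a description across genes of the same 4 libraries. The keratin transcripts here range from 55.6% to 62.9% GC. With an offset for GC content and length, KRT19 was at 0.05 (edgeR adjusted p = 0.12) and KRT7 at 0.25 (adjusted p = 0.155), both no longer called. KRT8 at 0.14 (adjusted p = 6.81e-06), KRT18 at 0.09 (adjusted p = 0.025) and KRT15 at 0.25 (adjusted p = 0.0386) were still called. With this offset 2611 genes were called, against 3850 without it.

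KRT15, a type I keratin of basal cells in stratified and glandular epithelia, showed the steepest called rise of any member in the knockdown, 24 h and R219S comparisons. It had 1.96 and 1.64 CPM in shCtrl and 9.85 and 19.1 CPM in shFOXA1. Both knockdown libraries were far above control, but they differed from each other. The log2 fold change was 3.04 ± 0.421 (8.2-fold, edgeR adjusted p = 0.0113), rank 17 of 19092 genes from the highest. Without shCtrl replicate 1 the value was 3.16 (adjusted p = 0.242) and without shCtrl replicate 2 it was 2.92 (adjusted p = 0.286), so that call rests on both controls. At 0 h, KRT15 had 15.4 and 13.6 CPM, at 1 h 17.3 and 18, and at 24 h 46 and 46.5. The 1 h libraries lay just above 0 h and the 24 h libraries far above both.

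The KRT15 change at 1 h was 0.28 ± 0.0866 (edgeR adjusted p = 0.0136), which DESeq2 did not call (adjusted p = 0.114). In edgeR it was lost when 0 h replicate 2 (0.19, adjusted p = 0.218) or 1 h replicate 2 (0.25, adjusted p = 0.116) was left out. At 24 h it was 1.63 ± 0.0726 (3.09-fold, adjusted p = 3.11e-18). Most of that rise came after the first hour, since 24 h was 1.35 ± 0.0701 above 1 h (adjusted p = 1.22e-21). R219S had 16.5 and 15 CPM against 3.93 and 4.05 in WT. The R219S libraries were 3.99-fold higher (log2 2.00 ± 0.117, adjusted p = 5.14e-53), and 1.34% of genes had as high a fold change. KRT13, KRT15 and KRT19 are consecutive coding genes on chromosome 17, and their counts differed widely, with KRT13 near 0 throughout.

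KRT14, the type I keratin of the basal pair, was at the edge of detection. It had 3 and 10 counts in shCtrl against 12 and 25 in shFOXA1, 5 and 6 at 0 h, 9 and 19 at 1 h, 15 and 15 at 24 h, 0 and 3 in WT and 5 and 10 in R219S. The perturbed libraries were the higher ones in each comparison, without overlap. KRT14 passed the low-count filter in shFOXA1 and at 24 h only through the perturbed libraries. In shFOXA1 the log2 fold change was 1.56 ± 0.628 (edgeR adjusted p = 0.0922). That value passed without shFOXA1 replicate 1 (2.02, adjusted p = 0.0191). At 24 h it was 1.50 ± 0.599 (adjusted p = 0.0394), a call kept in 3 of 9 alternatives and lost when any of its 4 libraries was left out (1.40 to 1.61). The R219S to WT ratio of 15 to 3 counts per library total was 6.84, with a 95% interval of 1.94 to 36.9 that covers counting error only. In KRT14, 23.8% of 50-base windows recur elsewhere, mostly in KRT16 and its pseudogenes; KRT16 itself had 0 to 7 counts per library.

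KRT5, the type II basal partner of KRT14, was not detected in the knockdown table. A count of 0 in both shCtrl libraries allows up to 0.0424 CPM, and in both shFOXA1 libraries up to 0.0435 CPM. In the degron cells it had 2 and 8 counts at 0 h, 2 and 0 at 1 h, 0 and 2 at 24 h, 0 and 1 in WT and 0 and 0 in R219S, which allows up to 0.0633 CPM. The ratio to 0 h was 0.205 at 1 h (95% counting interval 0.0218 to 0.961) and 0.217 at 24 h (0.0231 to 1.02). A library with 2 counts occurred at 0 h, 1 h and 24 h alike, so the groups met and no change could be read at this depth. The rises of KRT15 were thus measured in cells in which KRT5 was at or near 0. KRT14 was itself about as low at 0 h, with 11 counts over both libraries against 10 for KRT5. At 24 h KRT14 had 30 counts against 2 for KRT5. Among the comparisons with controls, a KRT14 rise was called only at 24 h, a call kept in 3 of 9 alternatives.

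KRT4 and KRT13 are the pair of non-keratinised stratified epithelia such as the oesophagus. KRT4 never had more than 3 counts in a library, and both groups were at or under the limit of 3 counts per group in every comparison. KRT13 had 0 and 0 counts in shCtrl, 1 and 2 in shFOXA1, 0 and 1 at 0 h, 4 and 7 at 1 h, 9 and 3 at 24 h, 0 and 0 in WT and 5 and 6 in R219S. Every perturbed library had more counts than each of its controls. In the knockdown, however, both groups were at or under the limit, with 3 counts in shFOXA1 and 0 in shCtrl, too few to compare. Against 0 h the ratio was 11.3 at 1 h (95% counting interval 1.64 to 485) and 13 at 24 h (1.93 to 557). R219S was at least 5.02-fold higher than WT, taking WT at its limit of 3 counts over both libraries. These values have no replicate test, and 18.4% of 50-base windows of KRT13 recur in an overlapping gene on the opposite strand or in KRT15.

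KRT80, a widely expressed type II keratin found near desmosomes, went its own way. It had 1 and 0 counts in shCtrl and 3 and 0 in shFOXA1, too few to compare. At 0 h it had 3.91 and 3.63 CPM, at 1 h 3.95 and 6.38, and at 24 h 2.8 and 3.1. Both 24 h libraries lay below every other dTAG library. The values were 0.45 ± 0.171 at 1 h (edgeR adjusted p = 0.0533) and -0.39 ± 0.178 at 24 h (adjusted p = 0.0695), neither of which passed, although the 1 h value did without 1 h replicate 1 (0.75, adjusted p = 0.000534). Between 1 h and 24 h KRT80 fell by 0.85 ± 0.184 on the log2 scale (adjusted p = 0.000158), and without 1 h replicate 2 that value was -0.46 (adjusted p = 0.0896). R219S had 20 and 10 counts against 5 and 6 in WT. KRT80 passed the low-count filter there only through the R219S libraries, with a rise of 1.89 ± 0.566 (edgeR adjusted p = 0.00189). That call was lost without WT replicate 1 (1.49, adjusted p = 0.0799) or R219S replicate 1 (1.18, adjusted p = 0.242). From 1 h to 24 h, KRT80 was the 1 member called lower and 5 of 7 were called higher, where 45.7% of all genes were called, 21.2% higher and 24.5% lower. KRT18 was among those 5 with 0.08 ± 0.0322 (adjusted p = 0.0439), a call kept in 5 of 10 alternatives and lost without 1 h replicate 1 or 2 or 24 h replicate 1.

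Whether the perturbations moved a keratin by different amounts was tested on the differences themselves. Of 7 members tested, 2 differed between the 24 h and knockdown changes, where 22.7% of all genes did, 9.45% with a higher and 13.2% with a lower change at 24 h. KRT19 rose less at 24 h than with knockdown, by 1.22 on the log2 scale (-1.22 ± 0.0851, edgeR adjusted p = 5.24e-09), and so did KRT8 (-0.35 ± 0.0989, adjusted p = 0.0192). The KRT8 difference no longer passed without 0 h replicate 1 or 2, 24 h replicate 2, or shCtrl replicate 1 or 2, with an adjusted p of up to 0.0908. KRT15 had -1.40 ± 0.556 (adjusted p = 0.168), which passed without shFOXA1 replicate 1 (-1.80) or replicate 2 (-0.84). KRT18 had 0.20 ± 0.0805 (adjusted p = 0.076), and it passed at 0.27 without shCtrl replicate 1 or shFOXA1 replicate 1.

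Between the R219S and knockdown changes, 3 of 7 keratins differed, where 41.6% of all genes did, 19.5% with a higher and 22.1% with a lower change in R219S. KRT19 (-0.92 ± 0.0897, edgeR adjusted p = 2.12e-06) and KRT8 (-0.53 ± 0.103, adjusted p = 0.00143) rose less in R219S, and KRT18 rose more (0.31 ± 0.0814, adjusted p = 0.0063). Without shCtrl replicate 2 the KRT18 difference was 0.25 (adjusted p = 0.0514). KRT15 had -1.06 ± 0.524 (adjusted p = 0.161) and passed without shFOXA1 replicate 1 (-1.47).

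Between the R219S and 24 h changes, 6 of 7 keratins differed, where 56% of all genes did, 30% with a higher and 26% with a lower change in R219S. KRT7 (0.67 ± 0.158, edgeR adjusted p = 0.00016), KRT19 (0.33 ± 0.0497, adjusted p = 1.97e-08) and KRT80 (2.28 ± 0.573, adjusted p = 0.000413) rose more in R219S. KRT80 had been low at 24 h, and without R219S replicate 1 its difference was 1.56 (adjusted p = 0.0672). KRT8 rose less in R219S (-0.15 ± 0.0476, adjusted p = 0.00502), with an adjusted p of 0.0563 without R219S replicate 2. KRT15 (0.36 ± 0.14, adjusted p = 0.0233) and KRT18 (0.13 ± 0.0527, adjusted p = 0.0304) also rose more. The KRT15 difference passed in 8 of 13 alternatives and was lost without WT replicate 1 or 2, R219S replicate 1 or 0 h replicate 1. The KRT18 difference passed in 4 of 13 and was lost without WT replicate 2, R219S replicate 1 or 2, 0 h replicate 1 or 2, or 24 h replicate 2.

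The luminal pair KRT8 and KRT18, and with it KRT19 and KRT7, went a different way in R219S from the other luminal markers. Of 9 markers, 8 were called lower and 0 higher, with a median log2 fold change of -1.77. The protease TMPRSS2 fell by 4.89 ± 0.16 (edgeR), the prostate membrane antigen FOLH1 fell by 1.76 ± 0.0512, and the kallikrein KLK2 fell by 1.77 ± 0.0615. KRT8, KRT18, KRT19 and KRT7 rose in those same libraries. At 24 h the markers were split, with 4 called higher and 5 lower: FOLH1 fell by 1.41 ± 0.0402, while HOXB13 rose by 0.61 ± 0.0386. In shFOXA1, 4 were higher and 1 lower, with HOXB13 at 0.36 ± 0.0749 and the adhesion protein EPCAM at -0.52 ± 0.0811. At 1 h, 3 were higher and 2 lower, and HOXB13 had risen by 0.24 ± 0.0307.

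**Figure D4:**
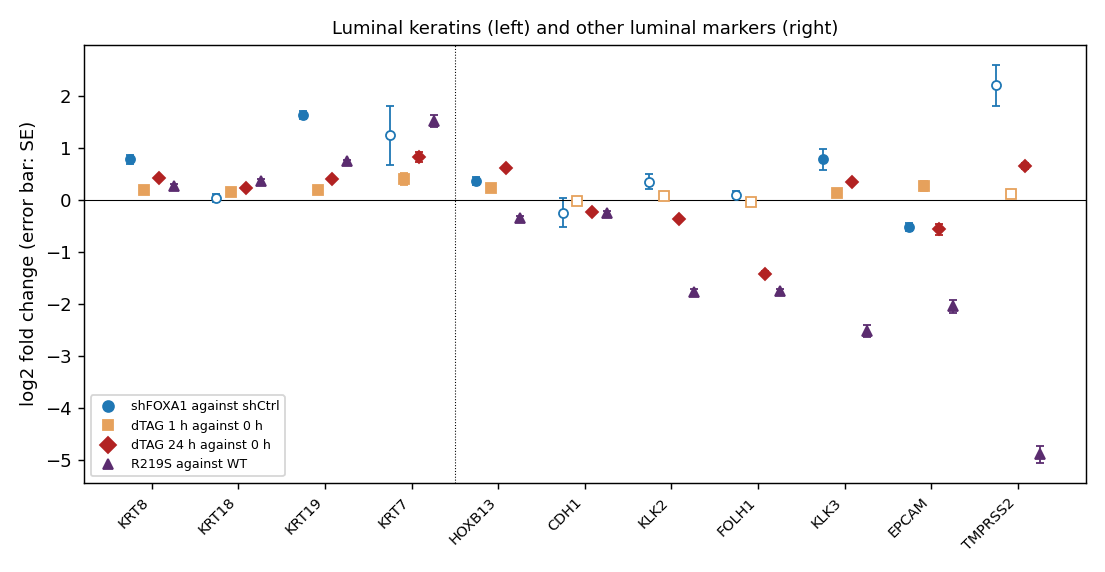
Log2 fold change (vertical axis, bars are SE) of 4 keratins (left of the dotted line) and of 7 other luminal markers (right) in the 4 main comparisons. The keratins are the luminal pair KRT8 and KRT18, and KRT19 and KRT7. Filled markers have an adjusted p under 0.05. The R219S triangles lie above 0 for all 4 keratins and below 0 for the markers, down to -4.89 for TMPRSS2.

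Fibroblast markers moved in the same libraries as the R219S keratins. Of 4 tested, 3 were higher and 1 lower; COL3A1 had 271 and 156 counts in WT and 5920 and 7228 in R219S, while COL1A1 fell by 0.89 ± 0.0827 (edgeR). Their part in the keratin changes was not tested. In shFOXA1 and at 24 h DCN, a matrix proteoglycan, was the only fibroblast marker edgeR called (1.57 ± 0.487 and 1.31 ± 0.535). DCN had 6 and 10 counts both in shCtrl and at 0 h, against 24 and 22 in shFOXA1 and 21 and 17 at 24 h. It thus passed the low-count filter in both comparisons only through the perturbed libraries, where it is high. DESeq2 did not call it at 24 h (adjusted p = 0.177) and gave it no adjusted p in shFOXA1. COL3A1 in shFOXA1 was at 2.62 ± 0.599, which DESeq2 called (adjusted p = 0.000558) and edgeR did not (adjusted p = 0.0683). Its counts there were 50 and 65 in shCtrl and 202 and 473 in shFOXA1. At 1 h 0 of 3 fibroblast markers were called by edgeR, 0 by DESeq2 and 0 at an unadjusted p under 0.05.

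Of 4 basal markers other than keratins, 3 were high enough to test. TP63, the basal lineage factor, was at 0 in all 6 dTAG time libraries and had at most 3 counts elsewhere. LAMB3, a laminin chain of the basement membrane, rose at 24 h (1.33 ± 0.0938, edgeR adjusted p = 2.61e-13) and in R219S (2.45 ± 0.134, adjusted p = 1.53e-59). NGFR fell by 0.79 ± 0.243 in shFOXA1, a change DESeq2 did not call (adjusted p = 0.126), and by 1.94 ± 0.24 in R219S. Of 3 tested, the called counts were 0 higher and 1 lower in shFOXA1, 1 and 0 at 24 h, and 1 and 1 in R219S. At 1 h edgeR called 0 of 3, with 0 at an unadjusted p under 0.05 and 0 by DESeq2. Neuroendocrine markers were mostly called lower, 3 of 3 in shFOXA1 (CHGA -0.62 ± 0.14) and 1 of 2 at 24 h (CHGB -0.80 ± 0.0679), with 1 of 2 higher at 1 h (SYP 0.15 ± 0.048, DESeq2 adjusted p = 0.13) and 1 each way in R219S. Of the endothelial markers 1 could be tested, in shFOXA1, where edgeR and DESeq2 made 0 calls and 1 had an unadjusted p under 0.05.

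The other 44 keratins were mostly too low to test. Those called against 0 h at 24 h were KRT36 (2.34 ± 0.326, edgeR adjusted p = 4.26e-07) and KRT32 (3.11 ± 0.462, adjusted p = 1.27e-06), both hair keratins, KRT10 (0.52 ± 0.149), and the type II KRT86 (0.55 ± 0.204), which DESeq2 did not call (adjusted p = 0.142). All 4 were higher, while KRT40 fell by 1.76 ± 0.733 from 1 h to 24 h (edgeR adjusted p = 0.0458). KRT40 passed the low-count filter through the 1 h libraries, where it is high, and DESeq2 gave that fall no adjusted p. Against 0 h it was not called at 1 h (0.67 ± 0.612, edgeR adjusted p = 0.511) and not tested at 24 h. In R219S those called were the type I KRT23 (3.68 ± 0.228, adjusted p = 8.13e-49) and KRT36, and the type II KRT6A (3.67 ± 0.656), KRT6C and KRT86 (1.18 ± 0.364, DESeq2 adjusted p = 0.0513), all higher. Of these, KRT86 alone did not owe its place in the test to the high R219S libraries, and KRT32 likewise entered the 24 h test through the 24 h libraries only. KRT36 went from 1 and 0 counts in WT to 11 and 13 in R219S. KRT6C, a near copy of KRT6A whose reads may be shared with it, went from 0 and 0 to 21 and 18 counts. In shFOXA1, KRT10, a keratin of suprabasal epidermis, fell by 1.02 ± 0.175 and KRT12, tested only through the knockdown libraries, rose by 2.05 ± 0.558. At 1 h edgeR and DESeq2 called 0 of 5 type I and 0 of 1 type II genes, with 2 and 0 at an unadjusted p under 0.05.

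Genes that anchor keratin filaments showed no common direction across the comparisons. For the desmosome, the junction that ties filaments between cells, 0 were higher and 5 lower of 10 in shFOXA1, led by PERP (-0.59 ± 0.0682, edgeR adjusted p = 0.000119) and DSG2 (-0.36 ± 0.0588). At 1 h, 1 was higher and 2 lower of 9, at 24 h 3 and 4 of 10, and in R219S 3 and 4 of 9. The plakophilin PKP3 rose at 1 h (0.50 ± 0.0346) and 24 h (0.46 ± 0.0393), whereas PKP2 fell by 2.27 ± 0.117 in R219S and JUP, plakoglobin, rose by 0.59 ± 0.0391. For hemidesmosomes and plakin linkers, which tie filaments to the basement membrane, the called counts were 0 higher and 3 lower of 10 in shFOXA1, 2 and 2 of 11 at 1 h, 5 and 2 of 11 at 24 h, and 4 and 3 of 11 in R219S. PLEC, the plectin that binds keratin to integrins, was at 0.17 ± 0.0308 at 1 h, 0.61 ± 0.037 at 24 h and 0.47 ± 0.0384 in R219S, all called. LAMA3, another laminin chain, fell by 3.34 ± 0.0792 at 24 h, and the plakin PPL fell by 1.34 ± 0.189 in shFOXA1.

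Other intermediate filaments did not share the keratin pattern either. VIM, vimentin, the filament protein of mesenchymal cells, rose in shFOXA1 (1.37 ± 0.127, edgeR adjusted p = 0.000111) and fell by 1.27 ± 0.101 at 24 h (adjusted p = 4.11e-12). The nuclear lamin LMNB1 fell by 1.15 ± 0.0469 at 24 h, and LMNA rose by 0.26 ± 0.036 there and by 0.42 ± 0.037 in R219S. The called counts were 1 higher and 2 lower of 8 in shFOXA1, 2 and 0 of 8 at 1 h, 1 and 4 of 8 at 24 h, and 2 and 3 of 9 in R219S. In the cornified envelope and filament-binding list they were 1 and 0 of 7, 1 and 1 of 6, 3 and 0 of 6, and 4 and 1 of 7 in the same order. FLG, filaggrin, which bundles keratin in epidermis, was called by edgeR each time, at 0.50 ± 0.129, -0.26 ± 0.0694, 0.64 ± 0.0639 and 0.91 ± 0.0652, and at 1 h not by DESeq2 (adjusted p = 0.0542).

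Regulators of basal and squamous genes went both ways in the degron cells. Of 11 tested each time, 0 were higher and 3 lower in shFOXA1, 3 and 3 at 1 h, 4 and 3 at 24 h, and 4 and 5 in R219S. SOX9 fell by 0.57 ± 0.115 in shFOXA1 (edgeR adjusted p = 0.00401) and rose at 1 h (1.18 ± 0.0455, adjusted p = 1.2e-37), 24 h (1.73 ± 0.0463) and in R219S (0.82 ± 0.0513). KLF5 fell by 0.30 ± 0.101 in shFOXA1 (DESeq2 adjusted p = 0.102, not called) and by 0.86 ± 0.0672 at 1 h and rose by 0.93 ± 0.0478 in R219S. GRHL2, an epithelial factor, rose at 24 h (0.58 ± 0.0354) and in R219S (0.70 ± 0.0395).

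For each keratin tested in all 4 main comparisons and called in at least 3, the genes with the most similar 4 log2 fold changes were sought among 12300 genes by Euclidean distance. Closest to KRT8 were GALT (distance 0.0694), SLC9A3 (0.0816) and SYT7 (0.104), and closest to KRT18 were DCUN1D4 (0.0608) and PCYOX1 (0.0793). These small distances sit among many genes of modest change. KRT19 had CPNE5 (0.195), LURAP1 (0.406) and ZFP2 (0.412), and KRT7 had C1orf54 (0.211), TRIM54 (0.292) and CALML4 (0.354). KRT15 had no neighbour nearer than PPP1R1B (0.614), followed by LMAN1L (0.676) and HLX (0.68). The members themselves were left out of the search. Likeness was in fold change only, whether or not a neighbour was called. CPNE5 and LURAP1 were each called in 1 of the 4 comparisons, and ZFP2, DCUN1D4 and PCYOX1 in 2. The other neighbours named were called in 3 or 4.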

How the data were processed

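RNA-seq was deposited as raw read counts per gene in 4 tables, made by the authors with STAR, featureCounts and hg19, with DESeq2 also named, per the submitters' processing notes; versions and strand setting are not given in the sources used here. Per the labels, RNA was extracted with a kit and sequenced by a service laboratory. The 0 h libraries have identical counts in both dTAG tables. Ensembl IDs were matched to symbols through a gene name table and GENCODE 29, 52337 of 57904 in the knockdown table and 52338 of 57905 in the dTAG tables, and 17850 of 20243 symbols of the R219S table were recognised. Fold changes, standard errors and p-values came from edgeR 4.0.16 (R 4.3.3; filterByExpr, TMM, robust quasi-likelihood F test), with Benjamini-Hochberg adjustment over all genes tested and calls under 0.05. Each main comparison was fitted on its own 4 libraries, 24 h against 1 h on 6 libraries, and the 3 differences between changes on 8 libraries. CPM levels are scaled to the library total (21560090 to 38465155 counts). RPKM used GENCODE 29 principal transcripts. Low counts have exact 95% intervals and a floor of 3 counts per group. Sequences are from RefSeq (GRCh38.p14), not the authors' build. The scripts were tested on simulated data. Alternatives were DESeq2 1.42.0, its size factors, library totals, other low-count filters, a replicate block, and leaving out each library. A GC and length offset was run for the 1 h comparison only.

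The 10 members were named in all comparisons; from each list, up to 4 called genes with the lowest adjusted p per main comparison were eligible. Some genes that these rules select are not reported here. Members and lists were chosen with earlier results of these data known.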

Additional observations from a re-analysis of the deposited data

Results flagged for a closer look

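For 11 results the change of a keratin differed between perturbations by a test of the difference itself (edgeR interaction, adjusted p under 0.05). In each of the 3 differences 7 members were tested. Over all genes, 22.7% differed between the 24 h and knockdown changes, 41.6% between R219S and knockdown, and 56% between R219S and 24 h. The 11 results are given as log2 differences. The 24 h change minus the knockdown change was -0.3549 for KRT8 and -1.2216 for KRT19. The R219S change minus the knockdown change was -0.5314 for KRT8, 0.3075 for KRT18 and -0.921 for KRT19. The R219S change minus the 24 h change was -0.1503 for KRT8, 0.1294 for KRT18, 0.3269 for KRT19, 0.6717 for KRT7, 0.3599 for KRT15 and 2.2791 for KRT80. The control libraries of the 3 sets differ in level and in engineered line, so a difference between perturbations and a difference between cell lines cannot be told apart. With 2 libraries per group no single library was tested as standing apart from its group.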

How the results depend on the processing

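Among 10 keratins, the calls of KRT8 in every comparison against controls were kept in every alternative run. So were those of KRT19 outside the 1 h comparison, and of KRT18, KRT7 and KRT15 at 24 h and in R219S. The GC and length offset was run for 1 h only, so calls in shFOXA1, at 24 h and in R219S were not checked against it. In shFOXA1, 4506 genes were called, and leaving out 1 library gave 1713 to 6793. At 1 h, 3850 were called, 2044 with DESeq2, and 2232 to 3422 without 1 library. The other counts of called genes stayed within 1.5 times. With library totals only, 52.6% of the genes called for the 24 h minus knockdown difference were higher, against 41.7% with TMM. The replicate numbers were taken as names only, since deviations of same-numbered libraries correlated at -0.0481 to 0.0561 over genes; with the replicate block 4412, 3909, 9868 and 8441 genes were called in shFOXA1, 1 h, 24 h and R219S, and 9296 for 24 h against 1 h, and the 3 differences gave 4539, 5440 and 7672. With the block, KRT80 at 1 h was at 0.43 (edgeR adjusted p = 0.0437), KRT15 at -1.37 for 24 h minus knockdown (adjusted p = 0.0106) and at -1.02 for R219S minus knockdown (adjusted p = 0.0387), all then called; the other 50 keratin values stayed on their side.

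Signs turned only in values that had not passed, each value being a log2 one. KRT18 in shFOXA1 ranged from -0.035 (shCtrl replicate 1 left out) to 0.101, and was -0.028 when shFOXA1 replicate 1 was left out. KRT14 for 24 h against 1 h ranged from -0.296 to 0.774 over the left-out libraries. For 24 h minus knockdown KRT14 was 0.008 with library totals and ranged from -1.086 to 0.59 with a library left out (0.051 and 0.525 also positive), and KRT80 from -4.083 to 1.881. For R219S minus knockdown KRT14 ranged from -0.12 to 4.769, KRT80 from -1.699 to 4.067 (-0.264 and -0.454 also negative), and KRT7 from -0.279 to 0.648 (-0.026 also negative). For R219S minus 24 h KRT14 ranged from -0.053 to 4.777. The cause was not tested. Per length, the KRT8 share of the members was 33.6% in shCtrl, 26.3% in shFOXA1, 54% at 0 h and 74% in WT. Depth limits KRT4, KRT5, KRT13 and KRT14, and in shFOXA1 KRT7 and KRT80.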
